A study of Mus musculus with 8 samples.

Results

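The 6 loci described here lie at the start of mouse chromosome 1. They were measured in testes of wild-type (WT) mice and of mice with Upf2 deleted in meiotic and haploid germ cells. They were fixed by their assembly identifiers, XLOC_000011 (Rb1cc1), XLOC_000006 (Lypla1 and Tcea1 assembled as one locus), XLOC_000027 (Cspp1), XLOC_000009 (Atp6v1h), XLOC_000044 (Terf1) and XLOC_000019 (Rrs1), and are 6 of 39667 loci with a value in each testis. RNA-seq was performed on the whole testis of 3 mice of each genotype, WT and Stra8-KO, all labelled C57BL/6 and 6 weeks old. The Stra8-KO mice carried Stra8-Cre and Upf2 fl/Δ, that is 1 floxed and 1 already deleted Upf2 allele. The Cre is active in postnatal male germ cells, so that the deletion was made in the germ line, while Sertoli, Leydig and other somatic cells of these testes kept the floxed allele and had 1 Upf2 copy left to express. The labels give the controls only as wild type and do not say whether they carried the Cre or a floxed allele. Purified spermatocytes and round spermatids are not analysed here.

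UPF2 bridges UPF1 and UPF3 in nonsense-mediated decay (NMD), which removes mRNAs with a premature stop codon and also acts on some mRNAs with a long 3'UTR. None of the 6 loci encodes an NMD factor. Rb1cc1 encodes FIP200, a scaffold of the ULK1 kinase complex that starts the formation of autophagosomes, and Atp6v1h encodes the H subunit of the vacuolar proton pump, which acidifies lysosomes and other compartments, the acrosome of spermatids among them. Lypla1 encodes an acyl-protein thioesterase that takes palmitate off proteins. Tcea1 encodes elongation factor TFIIS, which rescues a stalled RNA polymerase II. Cspp1 encodes a protein of centrosomes, spindle poles and the base of primary cilia, Terf1 encodes the shelterin subunit TRF1, which binds the double-stranded repeats of telomeres, and Rrs1 encodes a nucleolar protein needed for the assembly of the large ribosomal subunit.

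The 7 genes lie on the plus strand of chromosome 1 within 11 Mb, with all coordinates given for NCBIM37 (mm9). The first is Lypla1 at chr1:4797869-4876851, with 9 annotated transcripts, 4 of them coding. It runs into Tcea1 at chr1:4847775-4887987, and the pair share 29.1 kb of the same strand, which the assembly joined into a single locus with a single value. Atp6v1h follows at chr1:5073254-5152630 with 1 transcript of 14 exons. Rb1cc1 is at chr1:6196278-6266729 and has the longest mRNA of the 7 genes, 7607 nt in 24 exons with 1588 codons for amino acids. Rrs1, at chr1:9535489-9537535, is the opposite case, with a single exon of 2047 nt. Cspp1 covers 98.6 kb at chr1:10028299-10126849 and is annotated with 18 transcripts, of which 10 are coding. Terf1 is the last, at chr1:15795739-15833551.

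For Terf1 the study designed RT-PCR primers at the 3' end, and their 4 sequences are shown because they mark what a locus value of Terf1 adds up. The common pair is Terf1-commonSen at chr1:15833002-15833027, in the coding sequence of the plus strand, and Terf1-commonAnti at chr1:15833218-15833243, in the 3'UTR and on the minus strand. The 3'UTR pair is Terf1-3UTRsen at chr1:15833246-15833271 and Terf1-3UTRanti at chr1:15833462-15833487, again plus and minus. Each is 26 nt, is written 5' to 3' as the oligo was ordered, and falls in an exon of both annotated Terf1 transcripts.
Terf1-commonSen: acatggctttgggaagaagacagaat
Terf1-commonAnti: ggaaattgtaaacaaagtgtagtgat
Terf1-3UTRsen: gtcagtaatgataaagcattatggtg
Terf1-3UTRanti: attagactcttttgtattaaaacaga
The last coding base of Terf1 is 15833160, and 391 nt follow it up to the annotated end of the gene. The FPKM of the locus pools every Terf1 transcript, with and without the stretch between the 3'UTR primers, and a change of the 3'UTR alone cannot be read from it.

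Expression is given in FPKM, fragments per transcript length and library size, which allows levels of different loci to be compared. A WT testis had 22153 to 22316 loci above 0, and a Stra8-KO testis had 23206 to 23378. Each Stra8-KO testis had 16 to 38 loci that reached 1000 FPKM there while staying below 1 everywhere else, and together they held 26.1 to 38.5% of the summed FPKM of the testis, against 0 such loci in any WT testis. The loci carry no gene names of their own. Names were given to 38 loci at the start of the numbering, by an identifier shared with an isoform table of the study. Names of the 6 loci described here rest on this match. It was not used to name loci with later identifiers, so that Upf2 itself and markers of testicular cell types were not analysed here. For 17 of 18 of these named loci with a level of at least 2 in that table, among them all 6 loci described here, the WT level lay within a factor of 2 of it. In whole testis, fewer cells of a type and less RNA per cell cannot be told apart.

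The 6 loci kept nearly the same order in every testis. Rb1cc1 was the highest, followed by the Lypla1/Tcea1 locus, Cspp1, Atp6v1h, Terf1 and Rrs1, and only WT testis 2 had Atp6v1h above Cspp1. The values of Cspp1 and Atp6v1h overlapped in both genotypes, whereas all other neighbours in this order were separated in each genotype. From Rb1cc1 to Rrs1 the mean level in WT testes went from 249 ± 42.9 FPKM to 10.2 ± 1.37 FPKM (SD, n = 3 testes).

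**Figure D1:**
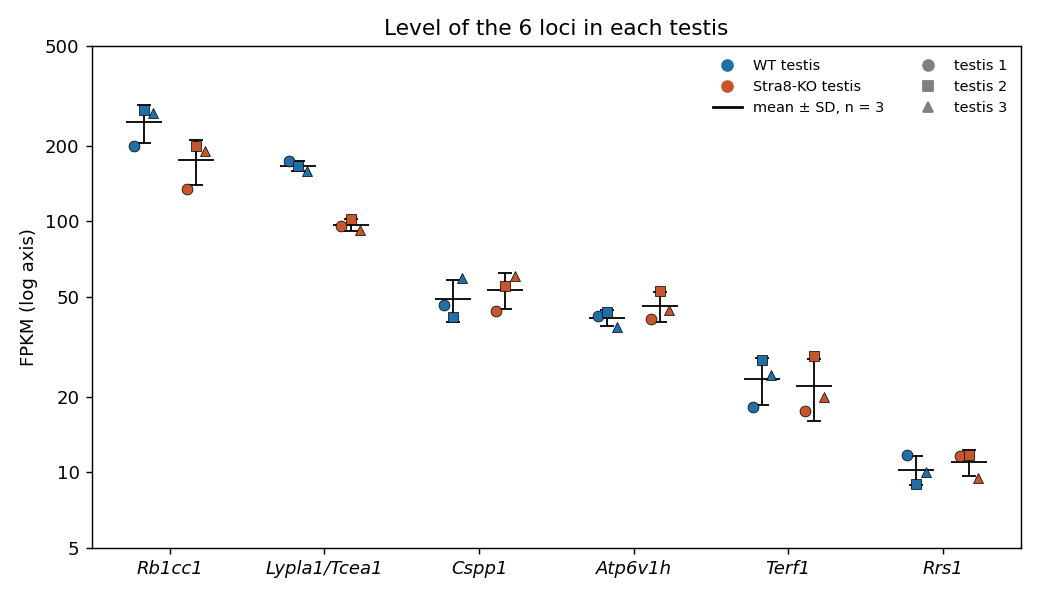
FPKM of the 6 loci on a log axis, with 1 point per testis (WT blue, Stra8-KO orange, the shape giving the testis number) and the mean ± SD of 3 testes. The Stra8-KO testes lay below the WT testes at the Lypla1/Tcea1 locus (92.5 to 102 against 159 to 174 FPKM) and, narrowly, at Rb1cc1, and overlapped with them at the other 4 loci.

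The comparison of WT and Stra8-KO testes asked which loci differ in level between them. The paper reports that Stra8-KO testes were smaller and had lost many of their meiotic and haploid cells. It holds that lower transcripts of spermatogenesis genes most likely came from this loss, from disturbed testis-specific expression, or from both. The genotypes thus differ in cell composition as well as in Upf2, and the part of each in the differences below was not tested. Of the 6 loci, 1 was down-regulated, 0 were up-regulated and 5 did not pass an adjusted p-value of 0.05 (limma on log2(FPKM + 1) with Benjamini-Hochberg adjustment over 18726 loci tested, n = 3 testes per genotype). Over all loci tested, 25.6% were down-regulated and 19.3% up-regulated, 44.9% in either direction. The median difference of the 6 loci was -0.0035 on the log2 scale, beside -0.07 over all loci tested. Their median spread, the SD of log2(FPKM + 1) between testes of a genotype, was 0.21, beside 0.27. The reads of each genotype were trimmed differently by the authors, and for all of these differences genotype and trimming cannot be told apart.

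The Lypla1/Tcea1 locus, which joins the depalmitoylating enzyme and the elongation factor, was the down-regulated one. Its FPKM was 174, 166 and 159 in WT testes 1 to 3 and 95.8, 102 and 92.5 in the Stra8-KO testes. Every Stra8-KO testis was below every WT testis, and testes of a genotype differed by little, with means of 166 ± 7.91 and 96.9 ± 4.99 FPKM (SD, n = 3). The mean in Stra8-KO testes was thus 58.3% of that in WT testes. On the log2 scale it fell by 0.77 (SE 0.10, 95% confidence interval -1.01 to -0.53, adjusted p = 0.00121, limma), a call that was kept in 16 of 17 settings and lost, at -0.27, in the scaling described further on. The fall did not reach the alternative minimum of 1 in absolute log2 fold change, which is not among the 17.

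At 0.07 the spread of this locus between testes was among the smallest, with 1.95% of the loci tested below it. These loci were of all levels, and spread was not compared at a like level. The size of its change was less unusual, since 60.4% of the loci tested changed by less in absolute value. Of the 1531 loci tested with a mean of at least 100 FPKM, where it belongs, 69.9% were down-regulated and 7.97% up-regulated, so a decrease was the usual outcome at this level. The value cannot be assigned to either gene. The longest coding transcript of Tcea1 also has 2 near copies elsewhere in the genome, the better one on chromosome 11 covering 69.3% of the mRNA at 99.7% identity, whereas no copy of Lypla1 was found, so reads of Tcea1 could have been split by the counting. A minus-strand gene, Gm6104 at chr1:4869283-4870750, lies within the shared stretch, and without strand information its reads could not be told apart.

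Rb1cc1, the autophagy scaffold, was the most abundant of the loci. It had 199, 277 and 270 FPKM in WT testes 1 to 3, and 135, 199 and 191 FPKM in the Stra8-KO testes. Testis 1 was the lowest in both genotypes. The genotypes did not overlap only because the lowest WT testis, at 199.4, was a fraction above the highest Stra8-KO testis, at 199.2. The means were 249 ± 42.9 and 175 ± 35.2 FPKM, or 70.3% of the WT level, with a log2 difference of -0.51 (SE 0.19, 95% confidence interval -0.96 to -0.06) that did not pass the test (adjusted p = 0.0643, limma, unadjusted p = 0.0310). FPKM without overlap between the genotypes and lower in Stra8-KO was seen at 30.9% of the loci tested. Rb1cc1 also belongs to the loci with a mean of at least 100 FPKM, of which 69.9% were down-regulated, so a decrease was usual at its level.

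Leaving out WT testis 1 brought Rb1cc1 past the threshold, at a log2 difference of -0.66 (adjusted p = 0.0317, limma). It stayed short of the threshold when any other testis was left out, with adjusted p from 0.0623 to 0.174 (limma), and the difference shrank to -0.33 without Stra8-KO testis 1. Its spread of 0.29 was larger than at 52.8% of the loci tested, which include loci of all levels. Spread was not compared with loci of a like level. On the minus strand 4732440D04Rik lies inside the Rb1cc1 gene, annotated at chr1:6203374-6204671 and chr1:6204693-6205373, and 1 region on chromosome 2 matches 10.6% of its longest coding mRNA at 95.4% identity.

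At the other 4 loci the FPKM as deposited overlapped between the genotypes, and no difference passed the test. Atp6v1h, the proton pump subunit, had 42.0, 43.6 and 37.8 FPKM in WT testes 1 to 3, and 40.7, 52.9 and 44.2 FPKM in Stra8-KO testes 1 to 3. The lowest Stra8-KO testis was within the WT range and the other two were above it. The means were 41.1 ± 3.002 and 45.9 ± 6.26 FPKM, a log2 difference of 0.15 (SE 0.14, 95% confidence interval -0.18 to 0.48, adjusted p = 0.410, limma).

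Cspp1, the centrosomal and ciliary protein, stood at 46.2, 41.4 and 59.6 FPKM in WT testes 1 to 3. In the Stra8-KO testes it stood at 43.8, 55.3 and 60.8 FPKM. Testis 3 was the highest in both genotypes, and the ranges overlapped over most of their length. With means of 49.1 ± 9.42 and 53.3 ± 8.65 FPKM the log2 difference was 0.12 (SE 0.18, 95% confidence interval -0.31 to 0.55, adjusted p = 0.616, limma).

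Terf1, the telomere protein, varied the most between testes of a genotype. Its FPKM was 18.2, 28.0 and 24.4 in WT testes 1 to 3 and 17.5, 29.0 and 19.9 in Stra8-KO testes 1 to 3. The Stra8-KO testes held both the lowest and the highest of the 6 values, with the WT testes between them. The means were 23.5 ± 4.96 and 22.1 ± 6.07 FPKM, coefficients of variation of 21.1% and 27.5%, and the spread of 0.34 was larger than at 62.6% of the loci tested. The log2 difference of -0.10 (SE 0.23, 95% confidence interval -0.64 to 0.45, adjusted p = 0.758, limma) had no stable sign, since it was 0.07 after upper quartile scaling, 0.39 after scaling to the sum of FPKM without the loci high in a single testis, 0.03 without WT testis 2 and 0.05 without Stra8-KO testis 1.

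Rrs1, the ribosome assembly factor, was the least abundant of the loci, at 11.7, 8.99 and 9.99 FPKM in WT testes 1 to 3 and 11.6, 11.7 and 9.47 FPKM in Stra8-KO testes 1 to 3. The Stra8-KO values fell in the WT range, except that the highest of them, at 11.73, passed the highest WT testis, at 11.70, by a little. The means were 10.2 ± 1.37 and 10.9 ± 1.27 FPKM, a log2 difference of 0.09 (SE 0.18, 95% confidence interval -0.33 to 0.51, adjusted p = 0.708, limma).

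For loci of such levels, a call and the absence of one were about equally common. Of the 7559 loci tested with a mean of 10 to under 100 FPKM, the range of Cspp1, Atp6v1h, Terf1 and Rrs1, 53.3% were called in either direction. The absolute log2 differences of the 4 loci were larger than those of 12.4% of all loci tested at Atp6v1h, 9.79% at Cspp1, 7.67% at Terf1 and 7.03% at Rrs1. The intervals given for each of them include 0 and leave room for a change in either direction, so that the absence of a call does not show equal levels.

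**Figure D2:**
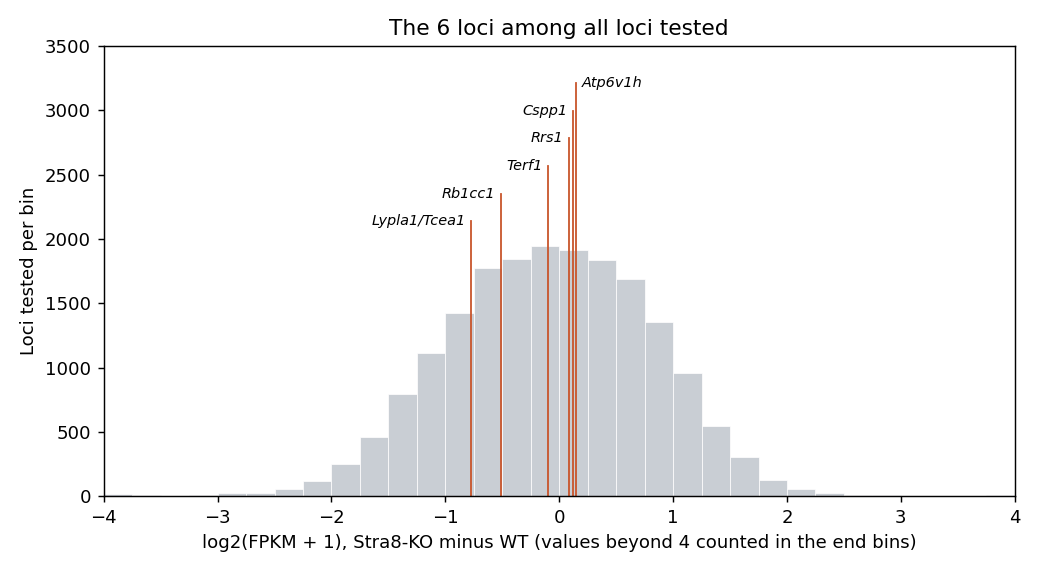
Number of loci tested per bin of the log2 difference between Stra8-KO and WT testes (grey bars, 18726 loci), with a vertical line at the value of each of the 6 loci, the line heights having no meaning. Lypla1/Tcea1 at -0.77 and Rb1cc1 at -0.51 lie in the left flank, and the other 4 lie between -0.10 and 0.15, near the peak of the bars.

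Rank within a testis does not depend on how the testes are scaled to each other. It is given as the percentile among the loci above 0 in that testis, where 100 is the highest, and compared by an exact two-sided permutation test, whose smallest p with 3 testes against 3 is 0.1. Stra8-KO testes had more loci above 0, at 23206 to 23378 beside 22153 to 22316 in WT testes. The same rank from the top is therefore a higher percentile in a Stra8-KO testis. Rb1cc1 held the ranks 574 to 807 from the top in WT testes and 458 to 745 in Stra8-KO testes, at mean percentiles of 97.1 ± 0.602 and 97.6 ± 0.654 (SD, n = 3, exact p = 0.4). So it had a lower FPKM and an overlapping, on average slightly higher, rank in Stra8-KO testes.

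The Lypla1/Tcea1 locus lost in rank as well as in FPKM. Its percentiles were 95.70, 94.97 and 95.001 in WT testes 1 to 3 and 94.85, 94.75 and 93.96 in the Stra8-KO testes. In ranks from the top the WT testes had 952 to 1120 and the Stra8-KO testes 1202 to 1403, with no overlap. The means differed by -0.71 percentile points (exact p = 0.1, the smallest possible). A lower rank without overlap occurred at 22.6% and a higher one at 32.7% of the loci tested.

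Atp6v1h was the other locus whose ranks did not overlap, and it moved up. Its percentiles were 83.3, 83.4 and 82.0 in WT testes 1 to 3 and 85.8, 88.7 and 86.2 in Stra8-KO testes 1 to 3. The difference in the means was 4.01 percentile points (exact p = 0.1, the smallest possible), from ranks 3690 to 4023 up to ranks 2651 to 3304. With FPKM that overlapped, the pump subunit thus stood higher among the loci of a Stra8-KO testis. A higher rank without overlap was common, at 32.7% of the loci tested. With loci at 0 ranked too, the difference at Atp6v1h was 1.90 percentile points (exact p = 0.1).

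The other 3 loci overlapped in rank. Cspp1 had mean percentiles of 84.8 ± 2.18 and 88.7 ± 1.71, WT first (exact p = 0.2, n = 3). Those of Rrs1 were 60.3 ± 2.19 and 63.1 ± 2.60 (exact p = 0.3, n = 3). From the top, Rrs1 held nearly the same ranks, 8288 to 9304 in WT testes and 8261 to 9263 in Stra8-KO testes. With loci at 0 ranked too, the difference fell from 3.92 to 1.89 points at Cspp1 and from 2.75 to 0.56 points at Rrs1. For Terf1 the mean percentiles were 74.6 ± 3.58 and 75.6 ± 4.33 (exact p = 0.9, n = 3). This difference of 0.91 points turned to -0.14 when loci at 0 were ranked too and to -0.10 when only tested loci were.

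**Figure D3:**
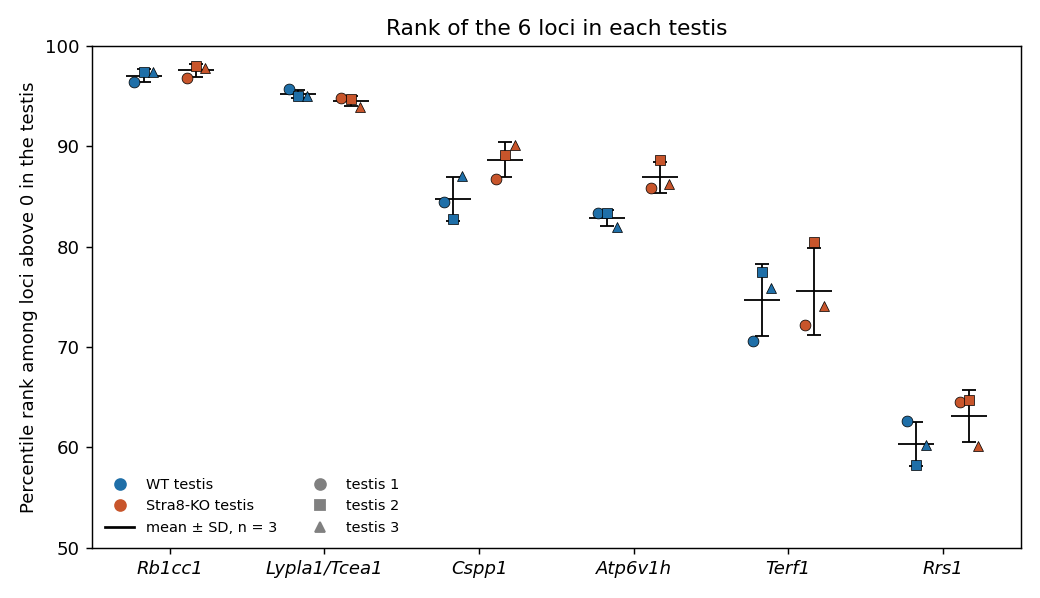
Percentile rank of the 6 loci among the loci above 0 in each testis (1 point per testis, WT blue, Stra8-KO orange, bars the mean ± SD of 3 testes, axis from 50 to 100). WT and Stra8-KO testes are apart at Lypla1/Tcea1, lower in Stra8-KO, and at Atp6v1h, higher in Stra8-KO, and overlap at the other 4 loci.

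The ratio of 2 loci within a testis is free of the scaling too, and was looked at after the values had been seen, so that it is a description with no test. Of the 15 ratios among the 6 loci, 7 did not overlap between the genotypes. The Lypla1/Tcea1 locus was part of 4 of them, all of its ratios but that with Rb1cc1, and Rb1cc1 was part of the other 3. Written with Lypla1/Tcea1 or Rb1cc1 as the numerator, all 7 were lower in Stra8-KO testes, and their inverses would be higher. Their common direction restates the lower FPKM of these loci.

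The ratio of Lypla1/Tcea1 to Atp6v1h was 4.15, 3.80 and 4.20 in WT testes 1 to 3 and 2.35, 1.93 and 2.09 in Stra8-KO testes 1 to 3. Its mean went from 4.05 ± 0.215 to 2.13 ± 0.211 (SD, n = 3), and the gap between the genotypes was larger than the range within either. Of the other loci tested, 33.6% were lower relative to Atp6v1h without overlap, 29.4% relative to Rrs1, 29.2% relative to Cspp1 and 21.6% relative to Terf1. The ratio of Lypla1/Tcea1 to Rrs1 went from 16.4 ± 1.83 to 8.91 ± 0.778 and that to Cspp1 from 3.48 ± 0.717 to 1.85 ± 0.332. Relative to Terf1 it went from 7.33 ± 1.97 to 4.55 ± 0.979, where the lowest WT testis, at 5.92, was close to the highest Stra8-KO testis, at 5.48.

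Rb1cc1 was lower in Stra8-KO testes relative to Atp6v1h, at 3.80 ± 0.512 after 6.08 ± 1.22 in WT testes, and relative to Cspp1, at 3.27 ± 0.289 after 5.18 ± 1.31. The ratio of Rb1cc1 to Terf1 was 10.97, 9.898 and 11.05 in WT testes 1 to 3 and 7.69, 6.87 and 9.62 in Stra8-KO testes 1 to 3. Here the spread was smaller than in either locus alone, since both were lowest in testis 1 of each genotype. In the WT testes the coefficient of variation was 17.2% for Rb1cc1 and 21.1% for Terf1, while their ratio was 10.6 ± 0.642. The ratio of Rb1cc1 to Lypla1/Tcea1, with means of 1.51 ± 0.314 and 1.81 ± 0.353, WT first, overlapped.

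**Figure D4:**
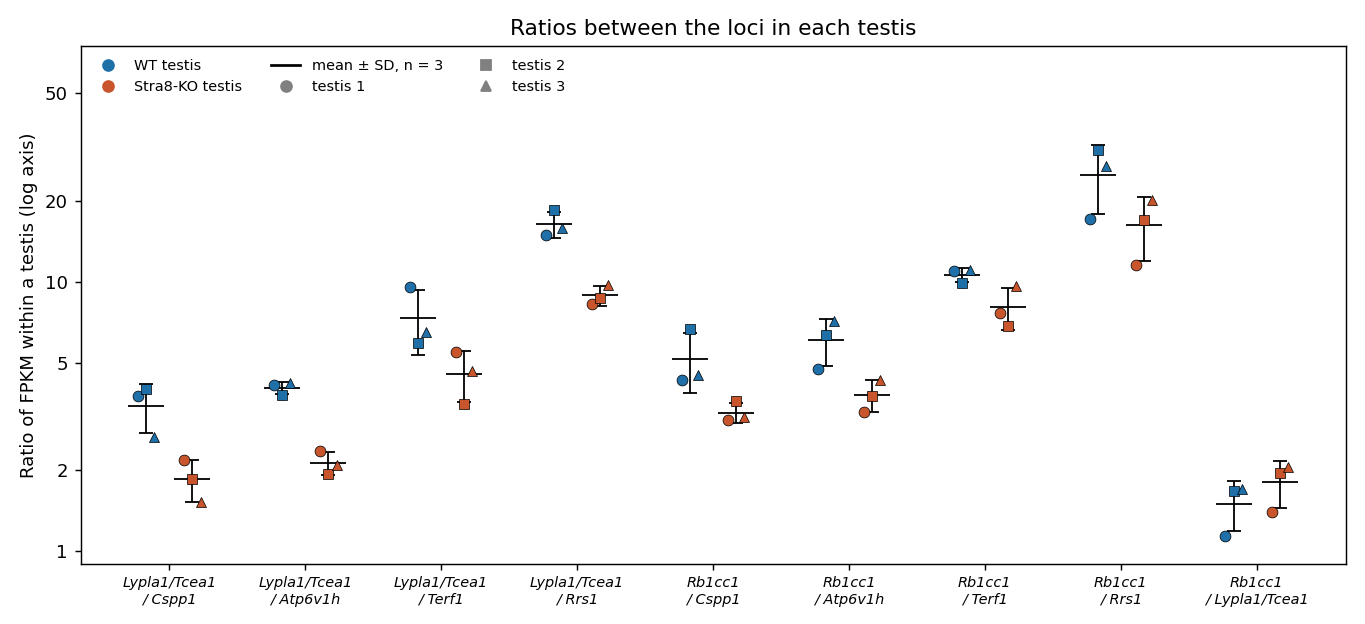
Ratio of FPKM within a testis for the 9 ratios with Lypla1/Tcea1 or Rb1cc1, on a log axis (1 point per testis, WT blue, Stra8-KO orange, bars the mean ± SD of 3 testes). The Stra8-KO testes are below the WT testes in 7 of the ratios and overlap with them for Rb1cc1 / Rrs1 and Rb1cc1 / Lypla1/Tcea1.

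The size of each difference moved with the scaling. Upper quartile scaling shifted the median of all loci tested by 0.15 on the log2 scale, and scaling to the sum of FPKM without the loci high in a single testis shifted it by 0.43, to 0.36. Of the loci called, 42.9% were up-regulated with FPKM as deposited, 54.4% after upper quartile scaling and 73.4% after the second of these. A scaling divides all loci of a testis by 1 factor. Distances to the median therefore stay nearly the same by construction, and they describe position only. Relative to the median of all loci tested, the Lypla1/Tcea1 locus lay between -0.71 and -0.63 and Rb1cc1 between -0.45 and -0.36 over 5 scalings. By the same measure Atp6v1h lay between 0.21 and 0.29, Cspp1 between 0.18 and 0.26, Rrs1 between 0.16 and 0.20 and Terf1 between -0.04 and 0.03, at the median itself.

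The call at Lypla1/Tcea1 held in 4 of these 5 scalings and was lost after the one without the loci high in a single testis, at -0.27 (adjusted p = 0.0670, limma). There Atp6v1h was up-regulated at 0.65 (adjusted p = 0.00609), Cspp1 at 0.62 (adjusted p = 0.0260) and Rrs1 at 0.55 (adjusted p = 0.0475, limma). At Rb1cc1 scaling to the full sum of FPKM gave a call, at -0.59 (adjusted p = 0.0132, limma), and leaving those loci out of the sum took the difference to -0.0072 (adjusted p = 0.977). The part of the loci high in a single testis in these differences was not tested.

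**Figure D5:**
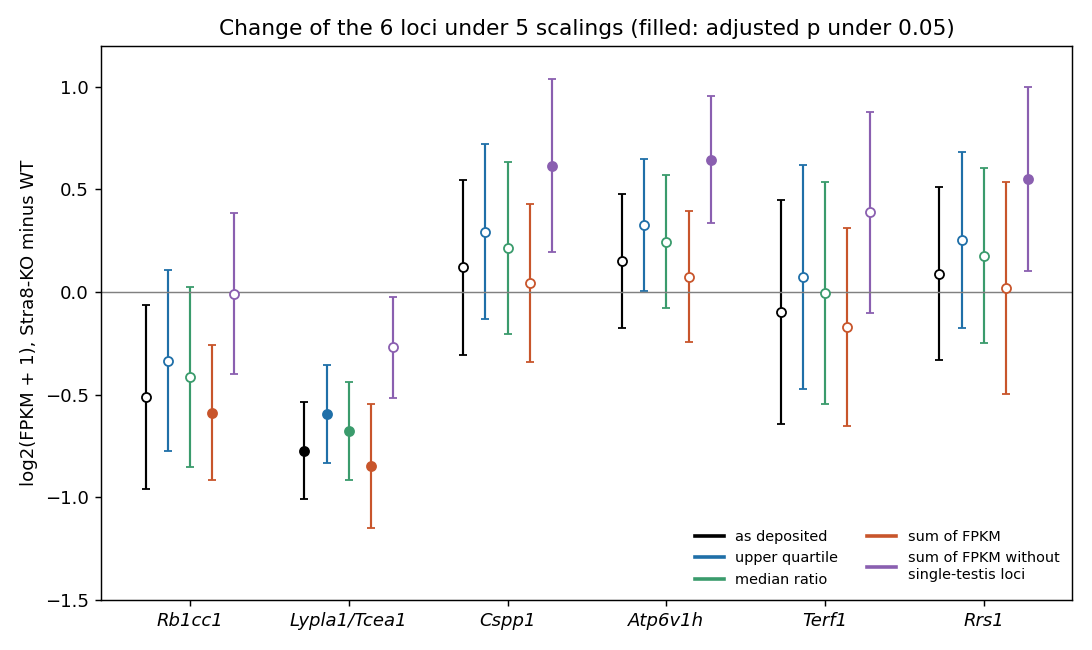
Log2 difference between Stra8-KO and WT testes of the 6 loci with its 95% confidence interval (vertical axis), for FPKM as deposited and after 4 other scalings (colours), a filled point marking an adjusted p under 0.05 (limma). The 5 scalings keep the same order at each locus, since each shifts all loci by nearly the same amount. Lypla1/Tcea1 is below 0 under all 5.

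Of all loci tested, 19.3% were up-regulated and 25.6% down-regulated, 44.9% in either direction. Among the other loci that could be named, 17 were tested, of which 6 were up-regulated, 1 was down-regulated and 10 did not pass. The profile over the 6 testes most like that of Lypla1/Tcea1 was Gm7568 (XLOC_000047), the down-regulated one, with a root mean square difference of 0.15 on the log2 scale after centring. It had 44.4, 47.1 and 35.5 FPKM in WT testes 1 to 3 and 19.0, 23.0 and 21.6 FPKM in Stra8-KO testes 1 to 3, without overlap (log2 difference -0.96, adjusted p = 0.00273, limma). Nearest to Rb1cc1 was Gdap1 (XLOC_000051), at 0.12 on the log2(FPKM + 1) scale. It was measured with the pseudocount of 1, which shrinks the differences of so weak a locus, at 1.40 to 1.83 FPKM in the WT testes and 0.493 to 1.13 FPKM in the Stra8-KO testes (log2 difference -0.45, adjusted p = 0.168, limma).

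Within the 6 loci, Atp6v1h and Rrs1 were the nearest to each other, with a root mean square difference of 0.18. Many other loci were closer in profile than the nearest of these 17, from 143 of the loci tested for Rb1cc1 to 2224 for Rrs1.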

How the data were processed

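Whole testes were sequenced by RNA-seq, 3 per genotype, WT and Stra8-KO. The authors trimmed reads with a different first base for each genotype, mapped them with TopHat2 to mm9 and assembled and quantified loci with Cufflinks, with its fragment bias and multi-read corrections. They deposited FPKM per locus for each testis, without counts, so the depth behind a locus is unknown and precision was taken from the spread between testes. The kit does not mark strand. The labels do not say more of the replicates than their numbers, so p-values measure the spread between these samples.

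From these values log2(FPKM + 1) was computed, and limma 3.58.1 (R 4.3.3) was run on the loci that reached 1 FPKM in 3 or more testes, using a variance trend, Benjamini-Hochberg adjustment over all loci tested and a threshold of 0.05. Fold changes of weak loci are understated by the pseudocount of 1. Intervals are at 95%. Ranks were compared by exact permutation tests. The loci named are the 6 described and, among other loci with an identifier up to 56, shared with an isoform table of the study, the nearest in profile to each. The members and lists were chosen with earlier results of these data known.

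Gene models are GENCODE on NCBIM37. Near copies were searched with blastn 2.17.0, at 95% identity or more over at least 200 nt. Alternatives were other pseudocounts, filters and scalings, no variance trend, a minimum absolute log2 fold change of 1, a replicate block and each testis left out in turn. A pseudocount of 0.01 and the scaling to the sum of FPKM without loci of at least 1000 in 1 testis and under 1 in the other 5 were added after seeing the data. Python 3.11.15 with pandas 2.3.3 and scipy 1.17.1 served for the rest.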

Additional observations from a re-analysis of the deposited data

How the results depend on the processing

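The difference at Lypla1/Tcea1 kept its sign in 17 of 17 settings, at -0.85 to -0.27, and passed the threshold in 16. Within these 17, the call was lost only after scaling to the sum of FPKM without the loci high in a single testis (-0.27). There Cspp1 (0.62), Atp6v1h (0.65) and Rrs1 (0.55) passed the threshold and Terf1 reversed (0.39). The requirement of an absolute log2 fold change of 1 or more is not among the 17. At -0.77 the Lypla1/Tcea1 locus did not meet it. Terf1 also reversed after upper quartile scaling (0.074), and passed the threshold in 0 of 17 settings. Rb1cc1 passed it in 3 settings, after scaling to the sum of FPKM (-0.59), with the replicate block (-0.51) and without WT testis 1 (-0.66). The cause was not tested.

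With 1 testis left out, the log2 difference ranged from -0.66 to -0.33 at Rb1cc1, from -0.81 to -0.74 at Lypla1/Tcea1, from 0.0088 to 0.27 at Cspp1, from 0.05 to 0.23 at Atp6v1h, from -0.30 to 0.049 at Terf1 and from 0.0088 to 0.18 at Rrs1. The difference in percentile rank of Terf1 was -0.14 with all loci ranked, -0.10 with only tested loci ranked, and with 1 testis left out from -1.53 (without Stra8-KO testis 2; -1.10 without WT testis 1) to 2.60.

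Over all loci tested, 3607 were up- and 4796 down-regulated. The counts were 1865 and 2669 when a log2 fold change of 1 or more in absolute value was also required, 6585 and 2388 after the scaling without single-testis loci, and, with 1 testis left out, 2404 (without Stra8-KO testis 3) to 3302 and 3706 to 4385.

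No clear pairing of the testes by replicate number was seen, and 3 pairs are too few to settle whether there was one. Deviations from the genotype means correlated at -0.02 to 0.13 in the 3 pairs with the same number and at -0.13 to 0.07 in the other 6. With the number as a block, Rb1cc1 passed the threshold (-0.51, adjusted p = 0.00760, limma), Lypla1/Tcea1 stayed past it (adjusted p = 0.00350), and 3530 loci were up- and 4898 down-regulated.

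Counts per locus were not analysed here, so counting error at Rrs1, the weakest locus, is unknown.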

Other observations

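Cspp1 and Atp6v1h, a ciliary and a lysosomal gene, were neighbours in level, with a ratio of Cspp1 to Atp6v1h of 1.0998, 0.951 and 1.58 in WT testes 1 to 3 and 1.076, 1.045 and 1.376 in Stra8-KO testes 1 to 3. The ratio was highest in testis 3 of each genotype.

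Rb1cc1, Terf1 and, by less, Cspp1 were lower than the mean of their genotype in testis 1 of both genotypes. On the log2 scale Rb1cc1 was at -0.30 in WT testis 1 and -0.36 in Stra8-KO testis 1, and Terf1 at -0.33 and -0.29. Cspp1 was at -0.07 and -0.26, whereas Rrs1 was above its mean in both, at 0.19 and 0.09. Atp6v1h was at 0.03 in that WT testis and at -0.16 in that Stra8-KO testis. The numbers do not mark a shared litter or day in the labels, and this was noticed after the values had been seen and was not tested.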
